A study of Homo sapiens with 94 samples.

Results

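Progress through G2 and mitosis rests on a set of genes that are switched on late in the cell cycle, and 58 of them were followed here among the 20239 genes measured in xenograft tumors of NCI-H226. The genes were taken by symbol from the expression table. NCI-H226 is an established human line of malignant pleural mesothelioma with a deletion of NF2, grown subcutaneously in SCID mice. All tumors carry this deletion, the untreated ones included, and all come from the same line. RNA was measured by RNA-seq after capture of transcripts with probes, as FPKM (fragments per length of transcript and per total of mapped fragments).

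The mice received K-975, a TEAD inhibitor, by mouth at 30, 100 or 200 mg/kg, or its vehicle, or nothing, and tumors were collected at 1 h, at 3-6 h or at 24 h. Vehicle and 200 mg/kg were given in 20 mL/kg and the lower doses in 10 mL/kg. In the comparisons of 30 and 100 mg/kg with vehicle, dose and volume thus cannot be told apart. At 1 h each treatment had 5 tumors. The 3-6 h study held 5 untreated tumors and, for vehicle and every dose, 2 cage groups of 5 tumors, and the labels do not tell which cage group was taken at 3 h and which at 6 h. At 24 h there were 4 vehicle tumors and 5 tumors of every other group. Of the 94 libraries, 3 held few genes (702, 7196 and 8531 at an FPKM of 1 or more) and were left out, which lowered 200 mg/kg at 1 h and 30 and 100 mg/kg at 24 h to 4 tumors each. In the 91 libraries kept, 11344 to 11665 genes reached an FPKM of 1, and the number of reads is unknown. The 1 h and 24 h studies had 1 cage group per treatment, where effects of cage and of treatment cannot be told apart. The mesothelial markers CALB2 (404 to 819 FPKM) and MSLN (173 to 365 FPKM) were present in every tumor. Of 9 leukocyte markers, CD68 (40.5 to 265 FPKM), ITGAM (mean 2.74 FPKM) and CD14 (mean 1.44 FPKM) were above 0 in all 91 libraries, and CD3E and C1QA were listed at 0 in 90 and 91 of them.

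Entry into mitosis is driven by CDK1 bound to B-type cyclins. The spindle checkpoint then holds back the anaphase-promoting complex until every kinetochore is attached to microtubules, after which sister chromatids separate and the cell divides. Transcripts of this program are produced mainly in G2, so their amount in a tumor follows the share of cycling cells as well as the level per cell, and in bulk RNA fewer cells of a type and less RNA per cell cannot be told apart. The YAP1-TEAD complex, which K-975 is meant to block, is known as a driver of proliferation in tumors with Hippo pathway defects.

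At 24 h after 200 mg/kg, 9 of the 58 genes fell against vehicle and none rose. They were MAD2L1, ANLN, AURKB, MELK, GTSE1, ESPL1, KIF23, FOXM1 and UBE2C, with mean levels of 52.6% to 70.3% of the vehicle mean. The count of 9 (15.5% of the genes) stands beside 7.41% of all 13036 genes tested that passed in this comparison in either direction, and 3.61% that passed as lower. In the other 8 comparisons of a dose with vehicle no member passed. The test was limma on log2(FPKM + 1) with Benjamini-Hochberg adjustment over all genes tested and a threshold of 0.05. The count of 9 changed with single tumors. It was 28 without replicate 2 of 200 mg/kg and 1 without replicate 1 of 200 mg/kg or replicate 3 of vehicle, and the 1 gene left in each case was ANLN. Leaving out vehicle replicate 1, 2 or 4 gave 4, 4 and 14 genes, and leaving out replicate 3, 4 or 5 of 200 mg/kg gave 3, 9 and 5 genes.

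Promoters of late cell cycle genes typically carry a cell cycle genes homology region (CHR), a site of the MuvB complexes that repress these genes in G1 and, with B-MYB and FOXM1, activate them in G2, often next to CCAAT boxes bound by NF-Y. RefSeq promoters (250 bases before to 50 bases after the first listed start of a gene, GRCh38.p14) were matched to 50 of the 58 genes. The CHR letters TTTGAA, read on both strands, stood in 37 of the 50 promoters (74.0%), against 9.6% of 9988 promoters of genes tested and 15.4% of all 27305 promoters of the table. CCAAT on either strand stood in 40 (80.0%), against 36.4% and 35.7%, and 26 members (52.0%) held it at 2 or more places, against 13.2% and 11.3%. Both motifs occurred together in 32 of the 50 members and in 4.18% of the genes tested. Of the 48 CHR matches in members, 37 lay within 100 bases of the start. GGAATG, the letters of the TEAD motif read on both strands, stood in 5 of the 50 members (10.0%), against 10.9% of the genes tested. Among the 7 members with a promoter that fell at 200 mg/kg and 24 h, 5 held TTTGAA, as did 32 of the other 43, whereas 2 or more CCAAT stood in 0 of the 7 and in 26 of the other 43 (60.5%), a difference that was not tested. FOXM1 and UBE2C also fell but had no promoter entry. For AURKB and MAD2L1 the 150 bases before the start lay inside the gene as listed with the expression values, which limits this contrast further. Of 50 promoters of further mitosis genes, 48.0% held TTTGAA and 56.0% CCAAT. A match gives the letters in this window and not a bound site. The 150 bases before the start are shown for 8 members, of which ESPL1 fell at 200 mg/kg and 24 h, to set the placing of the motifs side by side, with TTTGAA and CCAAT of either strand in capitals. In choosing these 8, stretches that reached far into the gene as listed with the expression values were passed over. The counts above were not screened in this way and hold all 50 promoters. For 43 of the 50, the bases after the start were found in a GENCODE transcript of the gene.
ESPL1 (chr12:53268149-53268298, plus strand): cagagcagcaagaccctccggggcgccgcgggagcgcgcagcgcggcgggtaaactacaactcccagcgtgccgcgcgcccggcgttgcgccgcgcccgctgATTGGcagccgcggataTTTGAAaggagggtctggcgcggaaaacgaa
CDC20 (chr1:43358831-43358980, plus strand): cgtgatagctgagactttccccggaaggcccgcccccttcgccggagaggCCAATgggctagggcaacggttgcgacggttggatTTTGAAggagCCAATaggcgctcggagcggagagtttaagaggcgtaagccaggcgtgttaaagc
CKS2 (chr9:89311045-89311194, plus strand): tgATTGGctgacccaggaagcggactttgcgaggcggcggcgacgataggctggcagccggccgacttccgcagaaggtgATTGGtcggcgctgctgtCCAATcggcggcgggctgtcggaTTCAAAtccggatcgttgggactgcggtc
KIF4A (chrX:70289954-70290103, plus strand): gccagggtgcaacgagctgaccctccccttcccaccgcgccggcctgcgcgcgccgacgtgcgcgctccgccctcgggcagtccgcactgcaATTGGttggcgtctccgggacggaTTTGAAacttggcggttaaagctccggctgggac
KIF11 (chr10:92592980-92593129, plus strand): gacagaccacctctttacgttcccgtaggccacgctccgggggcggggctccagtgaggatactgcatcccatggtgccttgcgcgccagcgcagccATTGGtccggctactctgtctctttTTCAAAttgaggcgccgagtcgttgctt
MKI67 (chr10:128126424-128126573, minus strand): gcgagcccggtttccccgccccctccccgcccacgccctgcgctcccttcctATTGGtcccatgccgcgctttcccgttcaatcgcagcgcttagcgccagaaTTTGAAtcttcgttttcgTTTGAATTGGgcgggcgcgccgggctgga
SPC24 (chr19:11155783-11155932, minus strand): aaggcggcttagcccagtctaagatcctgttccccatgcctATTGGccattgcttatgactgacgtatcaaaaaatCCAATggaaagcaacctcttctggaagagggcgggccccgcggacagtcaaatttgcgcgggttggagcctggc
KIF2C (chr1:44739687-44739836, plus strand): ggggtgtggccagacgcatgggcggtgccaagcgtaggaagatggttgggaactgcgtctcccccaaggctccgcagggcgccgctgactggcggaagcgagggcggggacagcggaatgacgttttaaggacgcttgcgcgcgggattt

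In ESPL1, CKS2, KIF4A and KIF11 every CCAAT shown lay upstream of the CHR letters. CDC20 and MKI67 held CCAAT on both sides, SPC24 held CCAAT with no CHR letters, and KIF2C held neither motif.

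Before any treatment the 58 genes spanned a wide range of levels. Over the 15 untreated tumors of the 3 time points, KIF23, a kinesin of the central spindle, had the highest mean, 317 ± 52.5 FPKM (SD, n = 15). It was followed by the cytokinesis scaffold ANLN with 131 ± 20.8 FPKM and the ubiquitin-conjugating enzyme of the anaphase-promoting complex UBE2C with 115 ± 23.3 FPKM. At the low end stood the phosphatase CDC25C with 2.16 ± 0.709 FPKM and the kinase NEK2 with 1.22 ± 0.858 FPKM. FPKM are per length of transcript, but the probes used for capture also enter the level of a gene, so the order holds for these libraries only. FOXM1, the transcription factor of the G2 program, stood at 52.3 ± 8.17 FPKM and TOP2A, which untangles sister chromatids, at 39.4 ± 6.46 FPKM.

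The members varied together from tumor to tumor. After the mean of each of the 19 groups was subtracted from log2(FPKM + 1), the 1653 pairs of members had a median Pearson's r of 0.50 over the 91 tumors, with a 5th to 95th percentile of 0.12 to 0.77, whereas members paired with the other genes tested had a median r of 0.01. All points share the library and its scaling, so r is given as a description. TPX2, which activates Aurora A on the spindle, had the highest mean r with the other members (0.67), followed by FOXM1 and TOP2A (0.65 each) and KIF23 (0.64). The lowest values belonged to NEK2 (-0.02), SPC24 (0.20), MAD2L1 (0.25) and CDC25C (0.26), of which NEK2 and CDC25C are also the members of lowest level. A tumor thus tended to be high or low for most of the set at the same time, and its 58 values do not count as 58 separate observations of a treatment.

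**Figure D1:**
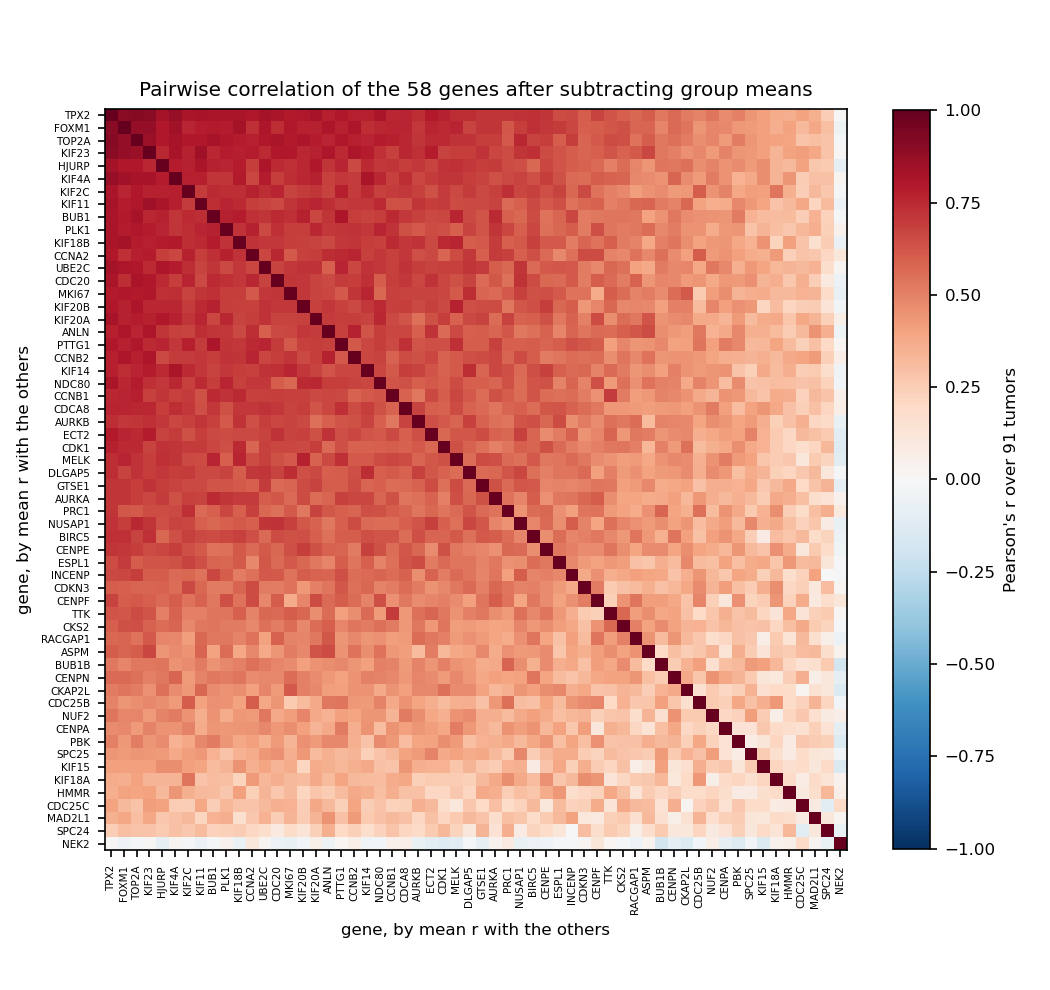
Pearson's r of each pair of the 58 genes over 91 tumors, computed on log2(FPKM + 1) after subtraction of group means, with genes on both axes ordered by their mean r with the others. Most of the field is red (positive), with a median r of 0.50, and the pale last row and column is NEK2, whose mean r was -0.02.

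The mean of log2(FPKM + 1) over the members places each tumor on a single scale. At 24 h it was 4.33, 4.32, 4.61 and 4.01 in the vehicle tumors and 3.76, 4.40, 3.64, 4.02 and 3.80 with 200 mg/kg. The treated tumor at 4.40 (replicate 2) was higher than 3 of the 4 vehicle tumors, and the vehicle tumor at 4.01 (replicate 4) was lower than 2 of the 5 treated ones, so the groups overlapped. In replicate 2, 47 of the 58 members had their highest value of the 5 treated tumors, and in vehicle replicate 4, 43 members had their lowest value of the 4 vehicle tumors. With 100 mg/kg the mean was 3.94, 4.11, 3.75 and 4.46, with 30 mg/kg 3.80, 4.17, 4.16 and 4.13, and in untreated tumors 4.24, 4.21, 4.37, 3.98 and 4.44. The group means were 4.32 ± 0.24 (SD, n = 4) for vehicle, 4.07 ± 0.18 (SD, n = 4) for 30 mg/kg, 4.07 ± 0.30 (SD, n = 4) for 100 mg/kg and 3.92 ± 0.30 (SD, n = 5) for 200 mg/kg. The 3 doses share the same 4 vehicle tumors, and the differences between the doses were not tested.

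**Figure D2:**
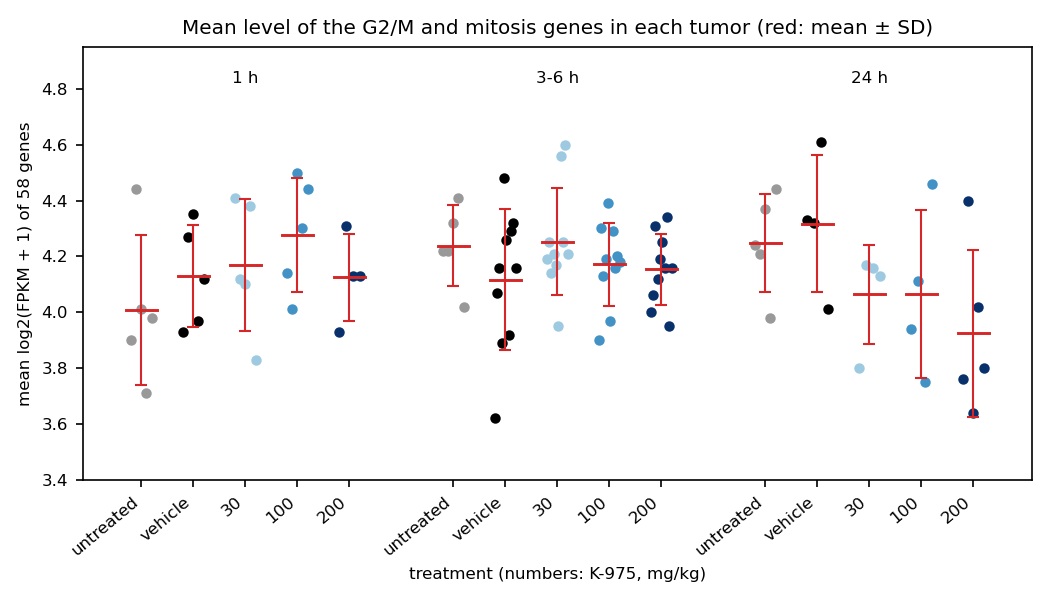
Mean log2(FPKM + 1) over the 58 genes in each of 91 tumors (points) by time and treatment, with the group mean and SD in red. At 24 h the tumors given 200 mg/kg run from 3.64 to 4.40 and the vehicle tumors from 4.01 to 4.61 and a mean of 4.32, and at 1 h the means of vehicle and the 3 doses run from 4.12 to 4.28.

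Among the regulators of CDK1, FOXM1 fell at 24 h after 200 mg/kg. Its values were 58.2, 60.4, 76.3 and 44.7 FPKM with vehicle and 36.6, 57.0, 30.9, 40.6 and 37.1 FPKM with 200 mg/kg, so 4 of 5 treated tumors lay below all vehicle tumors (log2 fold change -0.56 ± 0.16 (SE), adjusted p = 0.0205, limma). CDK1 itself, the kinase of mitotic entry, read 28.1, 29.1, 24.2 and 19.4 FPKM with vehicle and 16.8, 22.5, 11.8, 22.2 and 15.3 FPKM with 200 mg/kg. Its difference of -0.51 ± 0.17 (SE) missed the threshold (adjusted p = 0.0596, limma), as did that of CCNA2, cyclin A2 (-0.58 ± 0.20, adjusted p = 0.056, limma). CCNB1, cyclin B1, ranged from 30.8 to 56.9 FPKM with vehicle and from 23.4 to 59.4 FPKM with 200 mg/kg, and the groups overlapped (-0.34 ± 0.21, adjusted p = 0.341, limma). All 9 genes of this role had differences below 0, with a median log2 fold change of -0.34.

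Of the mitotic kinases, MELK fell. It was measured at 13.0, 14.4, 17.7 and 12.4 FPKM with vehicle and at 6.75, 14.6, 6.94, 8.04 and 8.64 FPKM with 200 mg/kg, with replicate 2 again in the vehicle range (-0.66 ± 0.17 (SE), adjusted p = 0.0121, limma). PLK1, which drives spindle assembly and mitotic exit, read 47.6, 34.2, 51.7 and 31.9 FPKM with vehicle against 23.6, 40.2, 20.7, 39.5 and 29.2 FPKM, and the groups overlapped in 2 treated tumors (-0.44 ± 0.21, adjusted p = 0.21, limma). AURKA, the spindle pole kinase, differed by -0.59 ± 0.25 (adjusted p = 0.132, limma). NEK2 had the highest difference of all 58 genes, 0.04 ± 0.33, at a level of 1.67 ± 1.21 FPKM with vehicle (SD, n = 4), and PBK differed by -0.13 ± 0.31.

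The spindle checkpoint held the largest difference. MAD2L1, the MAD2 protein that inhibits CDC20 at unattached kinetochores, read 16.7, 17.7, 24.0 and 12.8 FPKM with vehicle and 8.91, 11.8, 9.99, 11.2 and 4.94 FPKM with 200 mg/kg (-0.87 ± 0.27 (SE), adjusted p = 0.0304, limma). It was the only member with every treated tumor below the lowest vehicle tumor, 1 of 58, where 3.22% of all genes tested did so. The kinases TTK and BUB1 differed by -0.57 ± 0.23 and -0.54 ± 0.21 and BUB1B by -0.43 ± 0.25, and none of these 3 passed (adjusted p = 0.118, 0.106 and 0.325, limma).

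AURKB, the kinase of the chromosomal passenger complex, fell from 35.5, 36.1, 44.7 and 21.6 FPKM with vehicle to 14.8, 27.1, 15.1, 20.9 and 16.4 FPKM (-0.83 ± 0.24 (SE), adjusted p = 0.02, limma), and only replicate 2 lay above the lowest vehicle tumor. Its partners BIRC5 (survivin), CDCA8 (borealin) and INCENP differed by -0.45 ± 0.21, -0.43 ± 0.20 and -0.23 ± 0.16 and did not pass. In the group of the anaphase-promoting complex and separase, 2 of 4 genes fell. UBE2C went from 122, 142, 161 and 106 FPKM to 76.8, 145, 70.6, 91.1 and 83.0 FPKM (-0.54 ± 0.17 (SE), adjusted p = 0.0415, limma). ESPL1, the separase that cuts cohesin, went from 11.7, 12.0, 16.9 and 10.4 FPKM to 5.44, 10.7, 6.38, 10.5 and 9.14 FPKM (-0.57 ± 0.18 (SE), adjusted p = 0.0392, limma), and 3 of its treated tumors lay below all vehicle tumors. CDC20, the activator of the complex, and PTTG1, the securin that holds separase in check, differed by -0.53 ± 0.21 and -0.22 ± 0.20 without passing.

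KIF23 was the only 1 of 10 kinesins to pass. Its values were 342, 289, 425 and 264 FPKM with vehicle and 193, 310, 178, 245 and 192 FPKM with 200 mg/kg (-0.57 ± 0.16 (SE), adjusted p = 0.0193, limma). All 10 kinesins had differences below 0, from -0.57 for KIF23 to -0.21 for KIF15, and 7 had an unadjusted p under 0.05. None of the 9 kinetochore and centromere genes passed, with differences from -0.57 ± 0.20 for HJURP, the chaperone of CENPA, to 0.00 ± 0.29 for CENPA, the histone variant it loads.

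Among the cytokinesis genes ANLN fell, with 146, 166, 186 and 103 FPKM with vehicle and 67.8, 122, 70.2, 83.2 and 76.2 FPKM with 200 mg/kg (-0.83 ± 0.19 (SE), adjusted p = 0.0024, limma). It had the lowest adjusted p of the 58 genes and passed in all 9 fits that each left out 1 of the tumors compared. PRC1, which bundles microtubules of the central spindle, differed by -0.48 ± 0.17 (adjusted p = 0.0629, limma), and its 5 treated tumors (27.8 to 45.8 FPKM) reached just into the vehicle range (45.3 to 57.3 FPKM). Of the 7 spindle assembly factors GTSE1 fell, from 24.7, 16.6, 27.2 and 19.2 FPKM to 13.1, 21.8, 15.1, 13.6 and 9.59 FPKM (-0.57 ± 0.19 (SE), adjusted p = 0.0495, limma). Its call lay close to the threshold. Of the 9 fits that each left out 1 tumor, GTSE1 and UBE2C passed in 2, MAD2L1, AURKB, ESPL1 and KIF23 in 4, FOXM1 in 5 and MELK in 7.

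The proliferation marker MKI67 (Ki-67) read 14.2, 13.9, 18.3 and 11.6 FPKM with vehicle and 8.66, 14.5, 7.45, 14.1 and 8.28 FPKM with 200 mg/kg. Replicates 2 and 4 lay in the vehicle range and the other 3 below it (-0.45 ± 0.17 (SE), adjusted p = 0.0814, limma). TOP2A read 42.3, 46.0, 48.0 and 33.6 FPKM against 32.6, 49.1, 25.0, 35.8 and 30.0 FPKM, with the highest of all 9 values in a treated tumor (-0.32 ± 0.14, adjusted p = 0.172, limma). Neither passed the test.

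**Figure D3:**
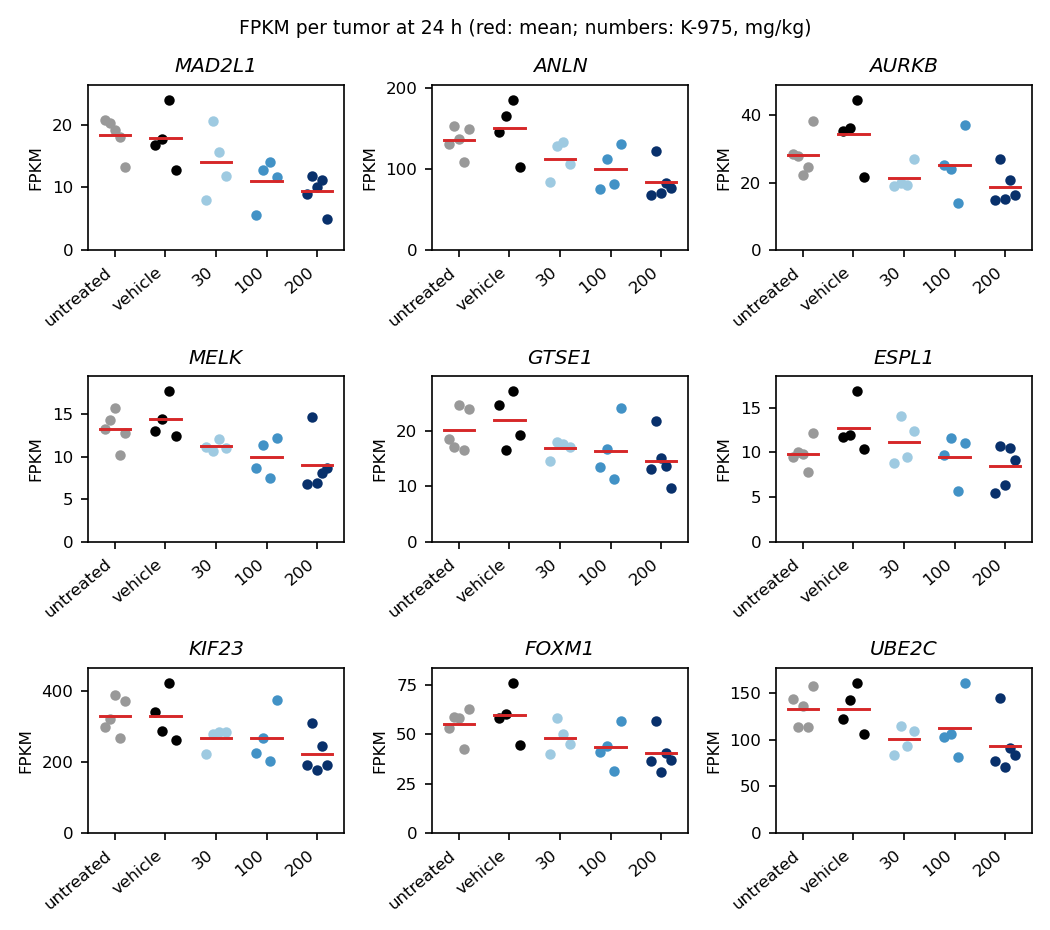
FPKM in each tumor at 24 h for the 9 genes that fell with 200 mg/kg, with group means in red and axes that start at 0. In 8 of the 9 panels a tumor given 200 mg/kg lies within the vehicle range, and only the MAD2L1 panel shows all 5 treated tumors (4.94 to 11.8 FPKM) below the 4 vehicle tumors (12.8 to 24.0 FPKM).

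Over all 58 members at 200 mg/kg and 24 h, 56 differences were below 0 and their median was -0.38, where the median over all genes tested was 0.04 and 44.6% of them were below 0. An unadjusted p under 0.05 was found for 32 members (55.2%) and for 21.9% of all genes. The exceptions above 0 were NEK2 and CENPA. The count below 0 has no test here, since the members vary together. In the same fit vehicle tumors at 3-6 h were below untreated ones in 55 of 58 members with no dose given (median -0.11), and the tumors of 100 mg/kg at 1 h were above vehicle in 53 (median 0.16). Near-uniform signs thus also stood where no member passed.

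**Figure D4:**
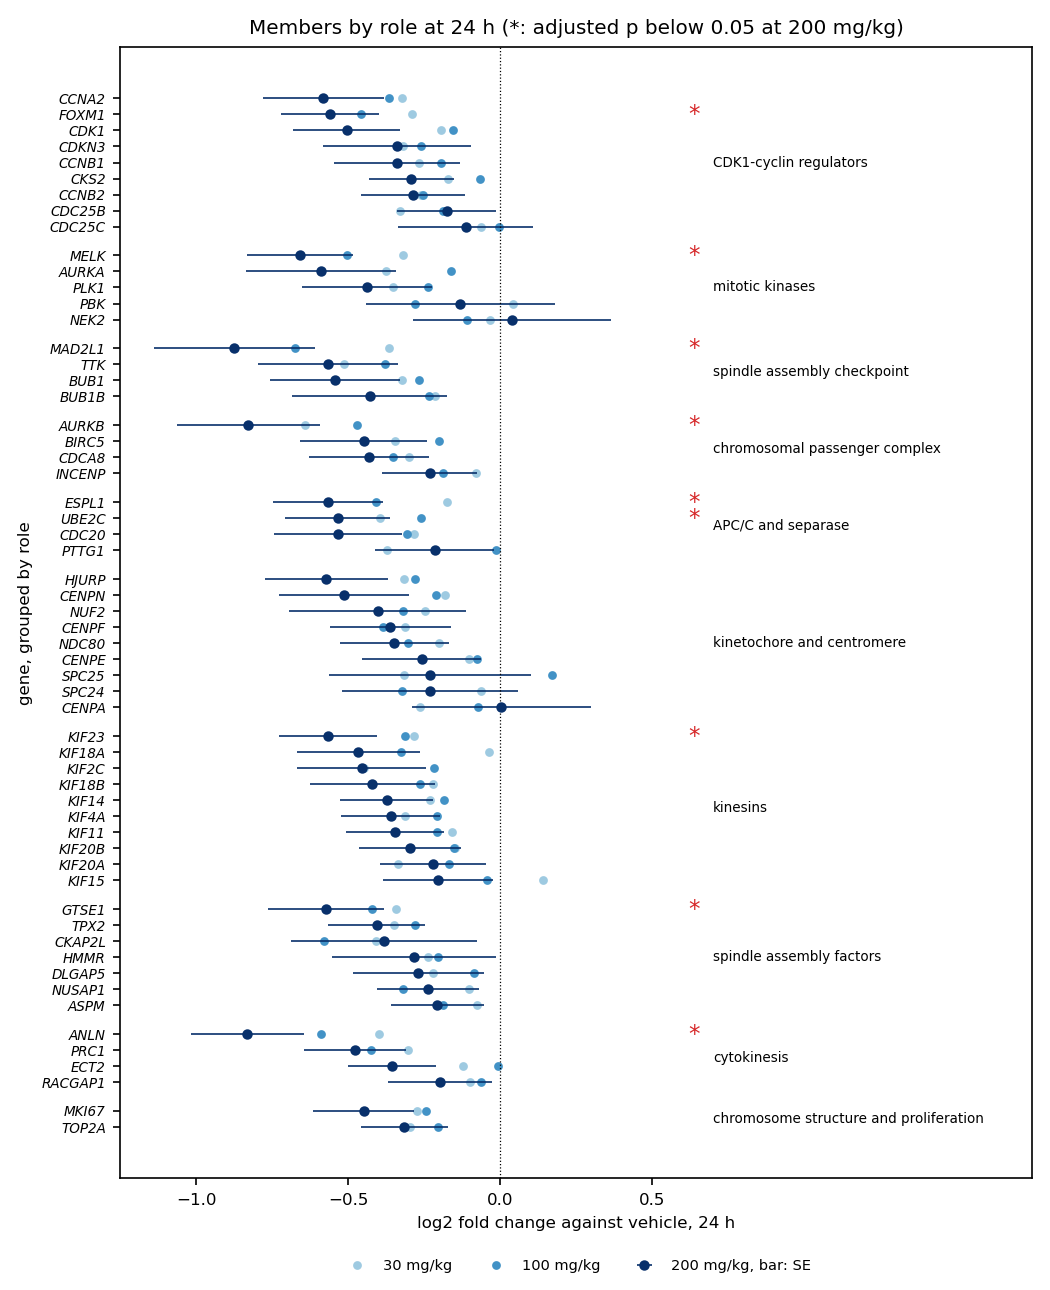
Log2 fold change against vehicle at 24 h for each of the 58 genes, grouped by role, for 30, 100 and 200 mg/kg (light to dark), with the SE drawn for 200 mg/kg and a red asterisk for an adjusted p below 0.05 at that dose. The 9 asterisks are spread over 8 of the 10 roles, and the lowest points are MAD2L1 (-0.87), ANLN (-0.83) and AURKB (-0.83).

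The 9 genes lie on different chromosomes for the most part. On GRCh38, as listed with the expression values, they are MAD2L1 (chr4:120055607-120067074), ANLN (chr7:36389805-36453791), MELK (chr9:36572861-36677683), FOXM1 (chr12:2857680-2877155), ESPL1 (chr12:53268298-53293643), KIF23 (chr15:69414245-69448427), AURKB (chr17:8204732-8210600), UBE2C (chr20:45812575-45816957) and GTSE1 (chr22:46296740-46330810).

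With 100 mg/kg at 24 h no member passed, where 1.12% of all genes did. The smallest p belonged to ANLN with 75.3, 112, 81.1 and 131 FPKM (-0.59 ± 0.20 (SE), adjusted p = 0.121, limma), MELK with 8.67, 11.4, 7.42 and 12.2 FPKM (-0.50 ± 0.18, adjusted p = 0.173, limma) and FOXM1 with 41.0, 44.3, 31.7 and 56.9 FPKM (-0.46 ± 0.17, adjusted p = 0.175, limma). For MELK the 4 treated tumors were all below the vehicle range, as they did for PRC1 (32.7, 38.8, 39.2 and 42.9 FPKM), 2 of 58 members where 2.94% of all genes did so. For ANLN and FOXM1 treated tumors reached into the vehicle range. MKI67 read 13.8, 12.2, 7.83 and 15.1 FPKM, CDK1 24.6, 21.3, 17.1 and 27.4 FPKM, and PLK1 28.9, 35.4, 28.1 and 47.5 FPKM, each overlapping vehicle. TOP2A read 31.7, 41.2, 27.8 and 48.2 FPKM (-0.21 ± 0.15) and CCNB1 31.9, 40.8, 34.4 and 45.1 FPKM (-0.20 ± 0.22), and neither passed. In all, 57 members were below 0, with a median of -0.24.

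With 30 mg/kg at 24 h, again no member passed, and 0.0384% of all genes did. AURKB read 19.1, 19.8, 19.3 and 26.9 FPKM (-0.64 ± 0.25 (SE), adjusted p = 0.362, limma), UBE2C 83.1, 115, 93.2 and 109 FPKM (-0.40 ± 0.18, adjusted p = 0.442, limma) and TTK 10.6, 12.8, 13.9 and 10.9 FPKM (-0.51 ± 0.24, adjusted p = 0.461, limma), all 3 overlapping vehicle. MELK, with 11.1, 10.7, 12.1 and 11.0 FPKM, was the 1 member whose treated tumors all lay below vehicle, where 2.84% of all genes did so. FOXM1 read 40.1, 58.1, 50.2 and 45.0 FPKM (-0.29 ± 0.17) and MKI67 9.83, 13.9, 11.6 and 11.6 FPKM (-0.27 ± 0.18). PLK1 read 23.0, 41.2, 38.1 and 27.1 FPKM (-0.35 ± 0.22), and CDK1 19.6, 26.2, 21.5 and 19.8 FPKM (-0.19 ± 0.18). In all 4 genes the lowest of the treated tumors was replicate 2, the first value given. TOP2A, with 31.4, 36.3, 36.7 and 32.2 FPKM (-0.30 ± 0.15), and CCNB1, with 27.8, 38.3, 49.0 and 31.5 FPKM (-0.27 ± 0.22), overlapped vehicle as well. The median over the members was -0.28 and 56 were below 0.

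At 1 h no member passed at 30, 100 or 200 mg/kg, beside 0%, 0.00767% and 0% of all genes. The members with the smallest p at 30 mg/kg were CDC25C, with 2.58, 1.65, 2.06, 1.70 and 3.60 FPKM in vehicle and 1.46, 1.55, 1.45, 1.39 and 1.05 FPKM in treated tumors with no overlap (-0.45 ± 0.21, adjusted p = 1, limma), HMMR, a hyaluronan receptor of the spindle, and CDK1. HMMR read 7.43, 8.98, 13.9, 12.9 and 6.56 FPKM with vehicle against 16.4, 12.8, 15.0, 13.4 and 12.9 FPKM (0.51 ± 0.25), and CDK1 18.9, 22.6, 21.5, 18.1 and 19.2 FPKM against 29.8, 21.8, 20.7, 29.0 and 20.7 FPKM (0.25 ± 0.16). Both overlapped vehicle. At 100 mg/kg they were CDC25B, GTSE1 and CCNA2, all higher in mean. CDC25B, a phosphatase that activates CDK1, read 18.5, 19.0, 19.2, 18.3 and 21.2 FPKM with vehicle and 27.4, 22.0, 28.3, 26.6 and 24.2 FPKM with 100 mg/kg, with no overlap (0.40 ± 0.15, adjusted p = 0.953, limma). The share of all genes tested without overlap was not counted at 1 h, so the separations of CDC25C and CDC25B stand without a background. GTSE1 (13.7 to 20.8 FPKM with vehicle, 18.4 to 29.5 FPKM with 100 mg/kg, 0.40 ± 0.18) and CCNA2 (10.1 to 15.2 and 14.2 to 21.1 FPKM, 0.38 ± 0.19) overlapped. At 200 mg/kg they were AURKA (14.4 to 19.1 FPKM with vehicle, 10.6 to 15.5 FPKM treated, -0.32 ± 0.25), RACGAP1 (21.5 to 33.4 and 22.6 to 24.5 FPKM, -0.20 ± 0.17) and MAD2L1 (0.34 ± 0.27). MAD2L1 read 17.6, 19.0, 30.2 and 17.0 FPKM there, against 13.4, 11.5, 22.4, 13.3 and 21.4 FPKM with vehicle.

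At 3-6 h no member passed at 30, 100 or 200 mg/kg, beside 0.0153%, 0.43% and 0.069% of all genes. PRC1 was among the 3 members of smallest p at every dose, in each case with a higher mean than vehicle. It ran from 22.2 over a median of 36.4 to 52.1 FPKM in the 10 vehicle tumors, and from 39.4 over 48.5 to 66.2 FPKM with 30 mg/kg (0.40 ± 0.11 (SE), adjusted p = 0.319, limma). With 200 mg/kg it ran from 37.0 over 43.9 to 56.6 FPKM (0.26 ± 0.11, adjusted p = 0.565, limma). The same vehicle tumors entered all 3 comparisons, and against untreated tumors (37.5 to 53.4 FPKM, mean 45.7) the difference of PRC1 was -0.05 with 100 mg/kg and -0.03 with 200 mg/kg. With 100 mg/kg it ran from 29.4 over 46.2 to 51.2 FPKM (0.24 ± 0.11, adjusted p = 0.434, limma). The kinetochore gene SPC24, from 1.68 over 5.63 to 9.90 FPKM with vehicle and from 4.66 over 6.93 to 12.0 FPKM treated (0.42 ± 0.19), and NEK2, from 0.336 over 0.949 to 2.46 and from 0.835 over 1.95 to 2.45 FPKM (0.47 ± 0.22), completed the list at 30 mg/kg. At 100 mg/kg these were CDC25C, from 1.37 over 1.78 to 2.44 and from 1.53 over 2.63 to 3.45 FPKM (0.35 ± 0.15), and SPC25, from 3.58 over 4.71 to 8.89 and from 1.30 over 3.09 to 7.20 FPKM (-0.45 ± 0.22). At 200 mg/kg they were BUB1B, from 3.29 over 7.13 to 10.8 and from 4.84 over 9.34 to 10.2 FPKM (0.35 ± 0.17), and MAD2L1 (0.37 ± 0.18), whose levels follow with the comparison of times. Every one of these pairs of groups overlapped. The medians over the members were 0.14, 0.08 and 0.04 at 30, 100 and 200 mg/kg.

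Taken cage by cage at 3-6 h, each against the mean of both vehicle cage groups, no member passed either. The labels do not match a cage group of a dose to a vehicle cage group by time, so these comparisons are not matched for time. Cage groups 4 and 5 (200 mg/kg) had medians over the members of 0.00 and 0.07, beside 0.00767% and 0.276% of all genes past the threshold. Cage groups 6 and 7 (100 mg/kg) had medians of 0.06 and 0.07 beside 0% and 1.33%, and cage groups 8 and 9 (30 mg/kg) 0.06 and 0.19 beside 0% and 0.0307%. ANLN differed by -0.31 ± 0.15 in cage group 5 and by -0.31 ± 0.15 in cage group 7 (adjusted p = 0.505 and 0.343, limma). Vehicle did not differ from untreated tumors in any member that passed at 1 h, 3-6 h or 24 h, and no gene at all passed in these 3 comparisons (0%, 0% and 0%; 616, 629 and 547 genes had an unadjusted p under 0.05).

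**Figure D5:**
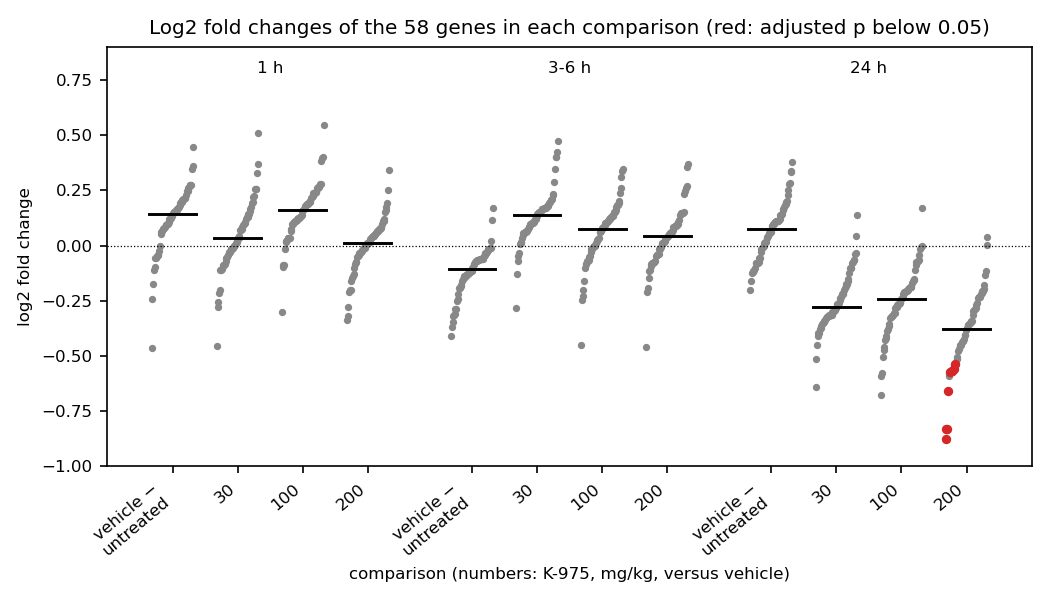
Log2 fold changes of the 58 genes (points, sorted within each column) in 12 comparisons, with the median as a black bar and an adjusted p below 0.05 in red. The 9 red points stand at 200 mg/kg and 24 h, where the median is -0.38, and the medians at 1 h and 3-6 h run from -0.11 to 0.16.

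A direct test compared the effect of 200 mg/kg at different times. Between 24 h and 3-6 h it differed for 2 members, beside 1.72% of all genes. MAD2L1 had an effect lower by 1.24 at 24 h (-1.24 ± 0.32 (SE), adjusted p = 0.0264, limma). At 3-6 h its treated tumors had run from 10.6 over a median of 16.1 to 23.9 FPKM and its vehicle tumors from 8.27 over 12.9 to 17.1 FPKM. PRC1 differed in the same direction (-0.74 ± 0.20 (SE), adjusted p = 0.0369, limma). AURKB came next (-0.98 ± 0.28, adjusted p = 0.0518, limma), and 26 members (44.8%) had an unadjusted p under 0.05. Without replicate 2 of 200 mg/kg at 24 h the count was 13, and it was 0 without replicate 1 of 200 mg/kg at 24 h or without vehicle replicate 1, 2 or 3 at 24 h. Between 24 h and 1 h no member passed, beside 0.583% of all genes, and MAD2L1 (-1.22 ± 0.38, adjusted p = 0.111, limma) and AURKB (-0.98 ± 0.33, adjusted p = 0.146, limma) had the smallest p. Time and study coincide, since each time was a study with its own controls.

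Of 61 further mitosis genes (condensin, kinetochore, lamin and mitotic entry genes among them), 12 fell at 200 mg/kg and 24 h and none rose, with a median of -0.38. Over all genes tested, 7.41% passed in this comparison in either direction and 3.61% passed as lower. Among the 12, the largest difference was that of CENPM. This centromere protein read 16.5, 17.7, 16.4 and 14.8 FPKM with vehicle and 5.93, 7.75, 6.80, 8.43 and 7.11 FPKM with 200 mg/kg, with no overlap (-1.09 ± 0.23 (SE), adjusted p = 0.00165, limma). PKMYT1, an inhibitory kinase of CDK1, the lamin LMNB1, the condensin subunit NCAPH and the kinetochore protein DSN1 followed among the 12 with -0.83 ± 0.25, -0.73 ± 0.20, -0.72 ± 0.21 and -0.64 ± 0.17. Differences of similar or larger size that did not pass were those of CENPI (-1.32 ± 0.45, adjusted p = 0.0526, limma), CENPP (-1.05 ± 0.49) and SKA1 (-0.73 ± 0.27), 3 genes named after their values were seen.

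Of 13 regulators of the mitotic gene program, 2 fell, where 3.61% of all genes tested did. MYBL2 (B-MYB), the activator that joins the MuvB complex in G2, read 31.6, 35.3, 37.3 and 22.3 FPKM with vehicle and 11.0, 27.2, 13.5, 15.6 and 17.4 FPKM with 200 mg/kg (-0.90 ± 0.20 (SE), adjusted p = 0.00304, limma), and replicate 2 was again the treated tumor in the vehicle range. LIN52, a MuvB subunit, read 5.86, 2.26, 16.3 and 3.80 FPKM with vehicle and ran from 0.749 to 2.85 FPKM with 200 mg/kg (-1.43 ± 0.47 (SE), adjusted p = 0.0472, limma). Its groups overlapped, and 1 vehicle tumor stood far above the others. The means of NFYB (24.5 with vehicle and 34.4 FPKM with 200 mg/kg), RBL2 (14.0 and 18.0), NFYC (20.0 and 23.5) and LIN37 (12.3 and 14.5) were higher with 200 mg/kg. Those of the other regulators were lower. None of 7 CDK inhibitors passed. CDKN1A (p21) read 67.2 ± 10.2 FPKM with vehicle (SD, n = 4) and 65.1 ± 8.40 FPKM with 200 mg/kg (SD, n = 5). In the same order, CDKN1B read 9.25 ± 0.91 and 11.7 ± 1.09 FPKM and CDKN2B 10.8 ± 2.83 and 17.0 ± 5.58 FPKM. CDKN2A, at low levels, read 0.446 ± 0.567 and 2.15 ± 1.23 FPKM. Its vehicle tumors read 1.18, 0.602, 0 and 0 FPKM and its lowest treated tumor 1.21 FPKM, so the groups were barely apart and near the floor. CDKN2C was also higher in mean with 200 mg/kg, and CDKN1C and CDKN2D were lower.

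The genes of the preceding phase were lower as well. Of 25 G1/S and replication genes 15 fell, where 3.61% of all genes tested did. All 25 had differences below 0, and the median was -0.69, beside -0.38 for the mitosis genes (the difference between these medians was not tested). CDC45, CCNE2, RRM2, MCM10 and CDC6 had the largest differences, from -1.05 ± 0.28 to -0.83 ± 0.26. Within groups, members and these genes varied together with a median r of 0.41 over 1450 pairs and 91 tumors. The CHR letters stood in 0 of the 22 promoters of these genes that the table held, and CCAAT in 15 (68.2%), with 2 or more in 45.5%, beside 80.0% and 52.0% of the members.

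Of 7 known TEAD targets 4 fell at 200 mg/kg and 24 h, where 3.61% of all genes tested did. CYR61 (CCN1) read 268, 268, 263 and 196 FPKM with vehicle and 71.9, 167, 94.9, 98.3 and 99.9 FPKM with 200 mg/kg, and CTGF (CCN2) 13.1, 12.9, 10.9 and 16.0 FPKM against 2.38, 5.72, 4.37, 4.93 and 4.20 FPKM. Neither overlapped. Replicate 2, which had the highest mean of the mitosis genes among the treated tumors, also had the highest CYR61 and CTGF of the 5, 167 and 5.72 FPKM. It was also highest for ANKRD1, AMOTL2 and AXL. For LATS2 replicate 5 was highest (21.5 FPKM, 21.3 in replicate 2), and for CRIM1 replicate 1 was (269 FPKM, 238 in replicate 2). These targets and the members are not separate sets in the paper. Its list of positive effectors of YAP1-TEAD holds AURKB, MAD2L1 and UBE2C, and members that did not pass, such as TPX2 and CKS2. CDK1 is on its list of negative effectors.

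Measures of the libraries and markers of other cells were set beside these differences. Genes at an FPKM of 1 or more numbered 11356 to 11422 with vehicle at 24 h and 11603, 11424, 11555, 11613 and 11572 in replicates 1 to 5 of 200 mg/kg, so replicate 2 was also closest to vehicle in this measure, whose part in the result was not tested. The 9 leukocyte markers had a summed level of 148 to 227 FPKM with vehicle and 131 to 210 FPKM with 200 mg/kg, mostly from CD68, which had a mean of 138 FPKM over the 91 libraries, and 0 of the 6 that were tested passed. For the 6 endothelial markers the sums were 33.2 to 71.0 and 31.2 to 93.9 FPKM, with EMCN at 0 in all 91 libraries and PECAM1 in 79. For the 5 fibroblast markers they were 841 to 1037 and 752 to 1394 FPKM, and none of these markers passed. The endothelial sums came mostly from KDR (mean 66.3 FPKM over the 91 libraries). The fibroblast sums came mostly from COL1A1 (594) and COL3A1 (292), beside PDGFRA (0.387), DCN (1.31) and LUM (1.03). These sums are thus a weak measure of other cells. The 8 mesothelial markers had sums of 2157 to 2276 with vehicle and 2369 to 3608 FPKM with 200 mg/kg, and MSLN and CALB2 rose (0.40 ± 0.13 and 0.39 ± 0.11, adjusted p = 0.0414 and 0.0198, limma). Over the 91 libraries ITLN1 ran from 2.99 to 1773 FPKM and KRT5 from 461 to 1548 FPKM, so these sums need not follow the other markers. Of 5 housekeeping genes tested, ACTB and GAPDH fell (-0.38 ± 0.08 and -0.29 ± 0.08, adjusted p = 0.00153 and 0.0162, limma). The part of these changes in the result was not tested.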

How the data were processed

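FPKM values deposited by the authors were used, 1 column per tumor. Per the labels, RNA from RNAlater-preserved tumors was isolated with miRNeasy, made into KAPA RNA HyperPrep libraries, enriched with HyperCap probes and sequenced paired-end. The submitters' processing notes name STAR and GRCh38. The quantifier, the annotation and the treatment of mouse reads are not given in the sources used here, and the files hold no read counts, so depth is unknown.

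For each of 20239 gene IDs, 1 entry was kept (316 further entries were left out) and 32 blank cells were read as 0. Of 94 libraries, 91 with at least 10000 genes at an FPKM of 1 were used. Genes at an FPKM of 1 or more in at least 4 libraries (13036, all 58 members among them) were fitted as log2(FPKM + 1) in limma 3.58.1 (R 4.3.3, statmod 1.5.0) with 1 coefficient per group for 19 groups, with a trended, robust spread. A fold change on this scale understates that of low genes. P-values were two-sided and adjusted by Benjamini-Hochberg over all genes of a comparison. The fit was tested on simulated data. Vehicle tumors of a time serve all doses of that time. Replicates were tumors of separate mice.

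The members and lists were chosen with earlier results of these data known. Per-tumor values are given for 6 set genes at 24 h and, in each comparison of a dose with vehicle, for members past the threshold or otherwise for those of the 3 smallest p. CENPM and the TEAD targets are shown from their lists. Alternatives covered the libraries, pseudocount, filter, scaling, spread model, control group and each tumor left out.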

Additional observations from a re-analysis of the deposited data

Results flagged for a closer look

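In all, 71 sets of values from 4 to 10 tumors were checked for a tumor far from the others. They were the mean of the members in each group, and single genes at 24 h (the 6 set genes and those that fell) with vehicle and each dose. Of the 71 sets, 6 held such a tumor. Chance alone gives about 5 percent in separate sets, but these share tumors and genes that vary together, so the 2 shares cannot be compared. With 200 mg/kg at 24 h the highest tumor stood apart for MELK (14.6 FPKM, nearest 8.64), UBE2C (145 FPKM, nearest 91.1) and ANLN (122 FPKM, nearest 83.2), and in all 3 it was replicate 2. This tumor also had the highest CYR61 of its group (167 FPKM) and an array weight of 0.558, where replicate 3 had 2.26. With 30 mg/kg at 24 h the lowest tumor stood apart for the mean of the members (3.80, nearest 4.13) and for KIF23 (223 FPKM, nearest 279), and the highest for AURKB (26.9 FPKM, nearest 19.8).

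The effect of 200 mg/kg differed between 24 h and 3-6 h by limma's interaction test for MAD2L1 (-1.24 on the log2 scale, adjusted p = 0.0264) and PRC1 (-0.74, adjusted p = 0.0369). Each time was a separate study, so time and study cannot be told apart.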

How the results depend on the processing

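The count of 9 members at 200 mg/kg and 24 h became 0 with all 94 libraries, 14 with each library centred on its median, 35 with array weights and 1 (ANLN) with only the compared groups fitted, and ran from 1 to 28 when single tumors were left out. With all 94 libraries, 34 members passed at 30 mg/kg and 24 h, where the shallow library moved the median of all genes to -0.65. Of the 2 members whose effect differed between 24 h and 3-6 h, 0 were left with all 94 libraries and 1 with only the compared groups, 24 passed with array weights, and the count ran from 0 to 13 when single tumors were left out. Between 24 h and 1 h, 7 passed with array weights, and 0 to 1 with single tumors left out, a range that also held for 100 mg/kg at 24 h and for cage group 9. ANLN passed in 8 of 9 alternatives (adjusted p from 2.84e-05 to 0.58) MELK, MAD2L1, KIF23 and FOXM1 in 7, AURKB and ESPL1 in 6, UBE2C in 5 and GTSE1 in 4. Signs reversed for MAD2L1 at 200 mg/kg and 1 h (-0.11) and MKI67 at 30 mg/kg and 24 h (0.12) with all 94 libraries, and, against untreated tumors at 3-6 h, for PRC1 at 100 (-0.0502) and 200 mg/kg (-0.0278) and BUB1B at 200 mg/kg (-0.0549). Beyond these constructions the cause was not tested. No paired analysis was possible because the labels carry no replicate numbers that link tumors across groups. Depth is unknown, so no limit of detection is given, and genes near an FPKM of 1 (NEK2, CDC25C) are the least certain.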
